A study of Homo sapiens with 6 samples.

Results

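Kruppel-like factors are transcription factors that share a block of C2H2 zinc fingers at the carboxyl end and bind GC-rich and CACCC elements. The 10 genes described here are KLF2, KLF3, KLF4, KLF5, KLF6, KLF7, KLF9, KLF10, KLF11 and KLF13. They were taken from the expression table by name: of the transcript clusters paired with exactly 1 gene symbol, each gene was read from its cluster of highest mean. All 10 had such a cluster, among 18417 genes with one. The cells were AGS, a human gastric adenocarcinoma line, and RNA was taken 48 hours after transfection with CTNNB1 siRNA, which silences beta-catenin, or with a control siRNA. Each group held 3 arrays whose titles call them biological replicates. The labels do not say that these came from separate passages, and the spread behind every p-value may thus be technical. Values are log2 expression on Affymetrix Human Gene 1.0 ST arrays, and differences are CTNNB1 siRNA minus control siRNA.

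The family falls into groups by the proteins its members bind outside the zinc fingers. KLF2, KLF4, KLF5, KLF6 and KLF7 act mainly as activators that recruit histone acetylases, KLF3 recruits the corepressor CtBP, and KLF9, KLF10, KLF11 and KLF13 bind the corepressor SIN3A. In the gut, KLF4 is known from differentiated, non-dividing epithelial cells and KLF5 from the dividing cells of the crypts. KLF2 and KLF6 are best known as stimulus-responsive genes, and KLF10 and KLF11 as genes induced by TGF-beta.

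Array medians lay between 5.38 and 5.46. CTNNB1 was 11.92, 11.76 and 11.75 on the controls (replicates 1 to 3, the order used throughout) and 10.27, 10.78 and 10.58 on the CTNNB1 siRNA replicates, and the target was lower on every array labelled as silenced. Its log2 difference was -1.27 (SE 0.17), with a Benjamini-Hochberg adjusted p of 0.232 in limma. CTNNB1 siRNA replicate 1 stood apart, with correlations across transcript clusters of 0.962 to 0.965 with the other arrays, against 0.983 to 0.988 among those. All 5 epithelial markers (EPCAM, KRT8, KRT18, KRT19 and CLDN4) had means above 6.02, the median of all tested clusters. Of the 14 measured immune, fibroblast and endothelial markers, CD68 and COL1A1 did as well, while the leukocyte gene PTPRC and the fibroblast genes DCN and LUM were among the dimmest. In a cell population, fewer expressing cells and less RNA per cell cannot be told apart.

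In these cells 4 of the 10 Kruppel-like factors, KLF4, KLF2, KLF6 and KLF13, were higher on all 3 CTNNB1 siRNA arrays than on any control, and the groups overlapped for the other 6. No member was lower throughout. Over all 19460 tested clusters the groups did not overlap in the higher direction for 6.81% and in the lower direction for 6.8%. No member passed limma's test at a Benjamini-Hochberg adjusted p of 0.05 over all tested clusters, where 0.00514% did. CTNNB1, the silenced gene, did not pass it either, so failing it does not show that a gene was unchanged. The members' adjusted p in limma ran from 0.747 to 0.981. At an unadjusted p under 0.05 in limma there were 4 members, all higher, against 3.04% of all clusters higher and 2.6% lower. The members were chosen with earlier results of these data known, so their counts beside these shares are a description and no independent comparison. The median log2 difference of the 10 was 0.24, with 8 above 0 and 2 below, and that of all genes was -0.0052. This tally depended on single arrays, most on control replicate 1: without it 5 members were above 0 and 5 below, with a median of 0.026. The split was 6 to 4 without CTNNB1 siRNA replicate 2 and 6 to 4 without CTNNB1 siRNA replicate 3, with medians of 0.28 and 0.34. It was 9 to 1 without control replicate 2 or without control replicate 3, with medians of 0.36 and 0.34. Without CTNNB1 siRNA replicate 1 it was 10 to 0, with a median of 0.30.

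**Figure D1:**
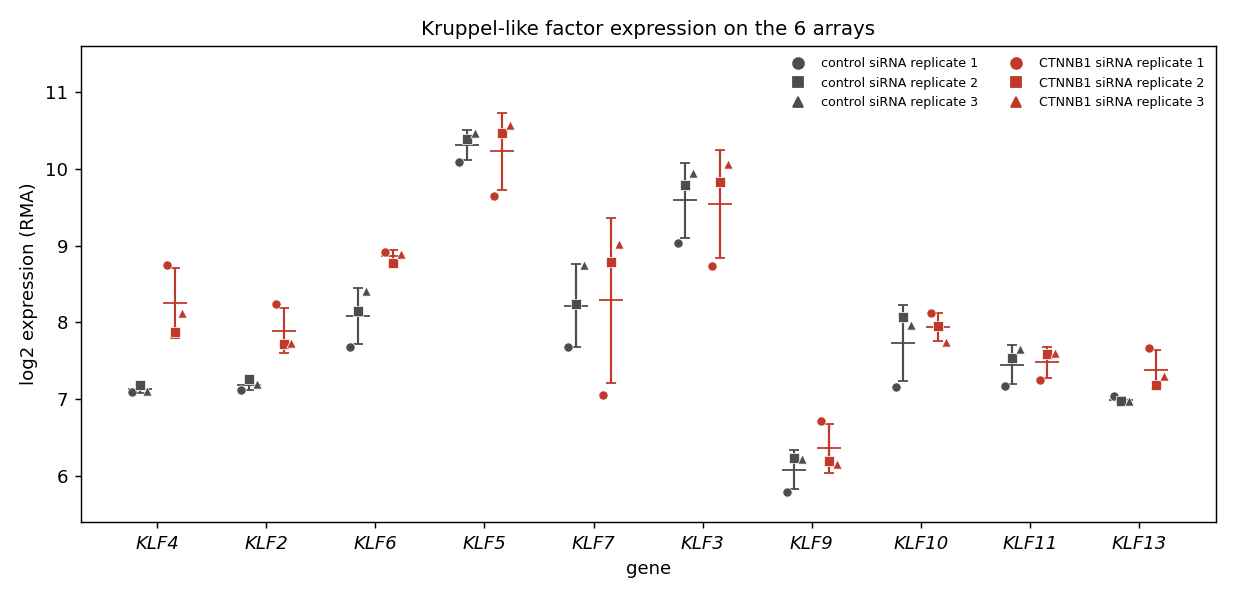
Log2 expression (vertical axis) of the 10 Kruppel-like factors (horizontal axis) on each array, control siRNA in grey and CTNNB1 siRNA in red; symbols mark the replicate, horizontal marks the mean and bars the SD of 3 arrays. KLF4, KLF2, KLF6 and KLF13 show no overlap between the groups, and KLF5, KLF7, KLF3 and KLF11 are lowest on replicate 1 of both groups.

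KLF4 had the widest separation of the family. It was 7.10, 7.19 and 7.11 on the controls and 8.75, 7.88 and 8.13 on the CTNNB1 siRNA arrays. The controls lay within 0.092 of each other, while the CTNNB1 siRNA arrays spanned 0.87, with replicate 1 the highest. The means were 7.13 ± 0.050 (SD, n = 3) and 8.25 ± 0.45 (SD, n = 3), a log2 difference of 1.12 (SE 0.22) or 2.18-fold, with a 95% confidence interval of 1.52 to 3.11-fold. Limma gave an unadjusted p of 0.00102, which ranked 24 among 19460, and an adjusted p of 0.747. With the outlying CTNNB1 siRNA replicate 1 left out, the log2 difference was 0.87 (adjusted p = 0.151 in limma).

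KLF2, a factor of quiescent lymphocytes and of endothelium under flow, was 7.11, 7.27 and 7.19 on the controls and 8.24, 7.72 and 7.73 on the CTNNB1 siRNA arrays. As for KLF4, the controls were close together and CTNNB1 siRNA replicate 1 was the highest array. The means of 7.19 ± 0.075 (SD, n = 3) and 7.90 ± 0.30 (SD, n = 3) differed by 0.70 (SE 0.18), or 1.63-fold (adjusted p = 0.816 in limma).

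KLF6, a widely expressed factor induced by injury and growth stimuli, was 7.68, 8.15 and 8.40 on the controls and 8.92, 8.77 and 8.89 on the CTNNB1 siRNA arrays. Here the order of the spreads was the other way round: the controls ranged over 0.72 and the CTNNB1 siRNA arrays over 0.15. The means of 8.08 ± 0.37 (SD, n = 3) and 8.86 ± 0.079 (SD, n = 3) differed by 0.78 (SE 0.20), or 1.72-fold (adjusted p = 0.816 in limma). Without CTNNB1 siRNA replicate 1 the KLF6 difference was 0.75, and it was smallest, at 0.58, without control replicate 1.

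KLF5 did not separate the groups, at 10.09, 10.39 and 10.46 on the controls and 9.65, 10.47 and 10.57 on the CTNNB1 siRNA arrays. Replicate 1 was the lowest array in each group, and the groups overlapped. The log2 difference was -0.085 (SE 0.25), with a 95% confidence interval of -0.67 to 0.50, so a moderate change either way could not be seen with 3 arrays a group. Its direction turned without CTNNB1 siRNA replicate 1, to 0.21.

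KLF7, a factor first studied in developing neurons, varied most between arrays. It was 7.68, 8.24 and 8.75 on the controls and 7.05, 8.78 and 9.03 on the CTNNB1 siRNA arrays, a range of 1.97 within the silenced group alone. The difference of 0.066 (SE 0.51; 95% confidence interval -1.10 to 1.24) was far inside that spread. It was 0.68 without CTNNB1 siRNA replicate 1 and -0.30 without replicate 3.

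KLF3, the CtBP-binding repressor, followed the arrays in the same way as KLF5 and KLF7. It was 9.04, 9.79 and 9.95 on the controls and 8.74, 9.83 and 10.06 on the CTNNB1 siRNA arrays. Its difference of -0.048 (SE 0.37) became 0.35 without CTNNB1 siRNA replicate 1 and -0.33 without control replicate 1. For KLF3, KLF5, KLF7 and KLF11 replicate 1 was the lowest array of both groups. With the replicate number added to the fit as a block, their differences were unchanged and their SE was 0.15, 0.17, 0.25 and 0.14. The cause of that array difference was not tested.

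Among the SIN3A-binding members KLF13, known for its role in T cell chemokine expression, was 7.04, 6.98 and 6.98 on the controls and 7.67, 7.18 and 7.30 on the CTNNB1 siRNA arrays. All 3 silenced arrays lay above the controls, whose range was 0.062. The log2 difference was 0.39 (SE 0.16), or 1.31-fold (adjusted p = 0.816 in limma), and 0.24 without CTNNB1 siRNA replicate 1. A dimmer cluster paired with KLF13 had means of 4.34 and 4.39, a difference of 0.045 (SE 0.13), with overlapping groups. The 2 clusters of KLF13 thus gave different sizes, and the reason was not tested.

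KLF9, a gene induced by glucocorticoid and thyroid hormone, was 5.80, 6.24 and 6.22 on the controls and 6.72, 6.20 and 6.16 on the CTNNB1 siRNA arrays. Only CTNNB1 siRNA replicate 1 lay above the controls, and the difference of 0.28 (SE 0.21) was 0.096 without it. KLF10 was 7.16, 8.07 and 7.97 on the controls and 8.12, 7.95 and 7.75 on the silenced arrays. Control replicate 1 was the array apart for KLF10: the difference was 0.21 (SE 0.25) with it and -0.080 without it. KLF11 was 7.17, 7.53 and 7.65 on the controls and 7.25, 7.59 and 7.61 on the silenced arrays, a difference of 0.028 (SE 0.18; 95% confidence interval -0.39 to 0.44) that was -0.11 without control replicate 1.

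**Figure D2:**
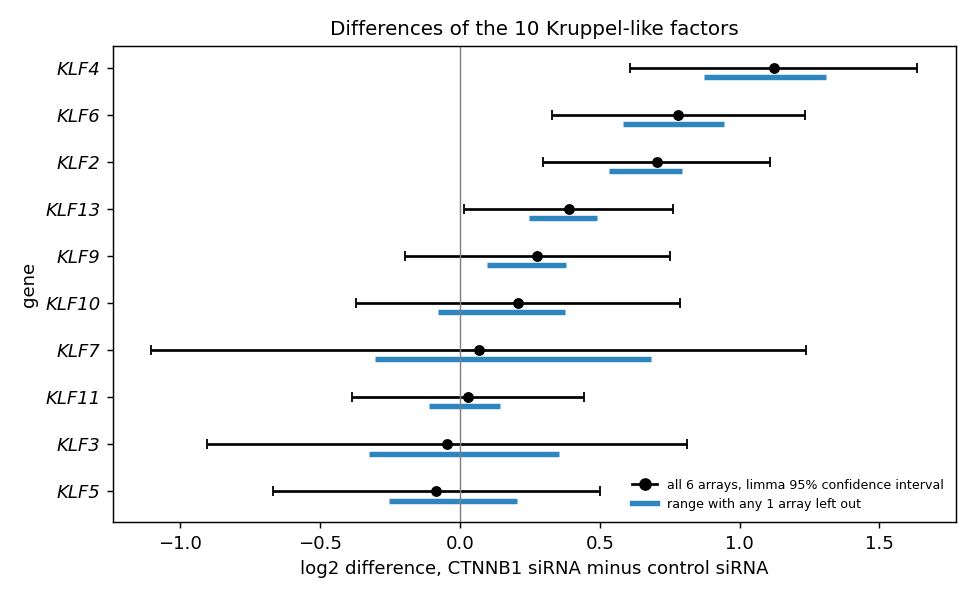
Log2 difference, CTNNB1 siRNA minus control siRNA (horizontal axis), of each Kruppel-like factor (vertical axis); points and black bars give limma's estimate and 95% confidence interval from 6 arrays, and blue bars the range of the difference with any 1 array left out. The blue bars of KLF4, KLF6, KLF2, KLF13 and KLF9 stay above 0, and those of KLF10, KLF7, KLF11, KLF3 and KLF5 cross it.

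Since KLF4 and KLF5 are known from opposite compartments of gut epithelium, their changes were compared within each array. This comparison was chosen with earlier results of these data known. Relative to each gene's control mean, KLF4 minus KLF5 was 0.19, -0.015 and -0.17 on the controls and 2.29, 0.59 and 0.74 on the CTNNB1 siRNA arrays. The groups did not overlap, and the mean change was 1.21. KLF4 alone differed by 1.12 and KLF5 by -0.085, so the change was nearly all that of KLF4 and does not show opposed responses. The 2-sided exact permutation test gave p = 0.1, the smallest that 3 arrays against 3 allow. CTNNB1 siRNA replicate 1 held much of it, being highest for KLF4 and lowest for KLF5, and the change was 0.67 without that array.

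The promoters of the 4 factors whose groups did not overlap are shown because these genes were higher together. Each line gives the 250 bases before the annotated start from the RefSeq table for GRCh38.p14, 5′ to 3′ on the gene's strand; KLF4 is at chr9:107489770-107490019 (minus strand), KLF2 at chr19:16324576-16324825 (plus), KLF6 at chr10:3785210-3785459 (minus) and KLF13 at chr15:31326585-31326834 (plus). Capitals mark matches on either strand to the GC box GGGCGG, to CACCC, to the TCF-like letters CTTTGAT or CTTTGAA, to TATAAA and to the MEF2 motif.
KLF4: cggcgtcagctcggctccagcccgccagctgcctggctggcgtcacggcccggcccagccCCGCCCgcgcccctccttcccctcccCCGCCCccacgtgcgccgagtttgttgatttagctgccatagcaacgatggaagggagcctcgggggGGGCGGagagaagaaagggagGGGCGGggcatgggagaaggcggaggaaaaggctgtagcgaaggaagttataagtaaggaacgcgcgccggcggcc
KLF2: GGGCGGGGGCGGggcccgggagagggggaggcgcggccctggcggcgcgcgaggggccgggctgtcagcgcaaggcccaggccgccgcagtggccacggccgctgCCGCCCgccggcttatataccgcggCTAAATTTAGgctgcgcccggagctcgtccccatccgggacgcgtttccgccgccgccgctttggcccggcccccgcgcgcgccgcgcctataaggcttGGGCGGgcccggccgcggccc
KLF6: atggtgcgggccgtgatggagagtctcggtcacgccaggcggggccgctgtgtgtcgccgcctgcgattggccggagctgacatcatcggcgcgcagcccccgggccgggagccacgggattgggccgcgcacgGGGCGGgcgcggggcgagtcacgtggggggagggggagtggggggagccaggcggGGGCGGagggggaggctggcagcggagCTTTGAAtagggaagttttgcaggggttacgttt
KLF13: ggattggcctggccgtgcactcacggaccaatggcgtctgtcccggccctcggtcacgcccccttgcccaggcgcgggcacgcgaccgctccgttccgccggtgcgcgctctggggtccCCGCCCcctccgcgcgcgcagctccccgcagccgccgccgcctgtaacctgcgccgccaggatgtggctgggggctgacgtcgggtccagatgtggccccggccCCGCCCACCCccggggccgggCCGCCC
GC boxes were the feature these windows had in common, with 4 matches in KLF4, 4 in KLF2, 2 in KLF6 and 3 in KLF13, of which 1 overlaps a CACCC match in KLF13. Of all 35116 promoter windows of this length, 42.6% held a GC box. The GC content was 69.2% for KLF4, 80.0% for KLF2, 72.4% for KLF6 and 78.8% for KLF13, against a median of 58.0%. GC boxes also stood in members whose groups overlapped: 7 of the 8 members found in the table had one in at least 1 window, KLF5, KLF7 and KLF11 among them.

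A TCF-like match, the kind of sequence that beta-catenin's DNA-binding partners recognise, stood in the KLF6 window, with its first base at position -34 from the start, and in 1 of the windows of KLF7. It occurred in 5.94% of all windows. The KLF2 window held a MEF2 match at position -120, a motif found in 0.515% of windows, and MEF2 factors are known activators of KLF2. CACCC occurred in 54.7% of all windows. A match describes letters only, and binding was not measured.

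The genes whose 6 values were most like those of KLF4 were PTPRH, a receptor tyrosine phosphatase gene, IRF8, a transcription factor gene of the interferon regulatory family, MUC13, a transmembrane mucin gene, ALPP, an alkaline phosphatase gene, and KCNK1, a potassium channel gene. Likeness was the root mean square distance between log2 values centred on each gene's mean, over 6 arrays and 9257 genes at or above the median level, and it was 0.10, 0.14, 0.14, 0.16 and 0.17 for these genes. PTPRH was 5.53, 5.68 and 5.64 on the controls and 7.16, 6.51 and 6.43 on the CTNNB1 siRNA arrays. Like KLF4 it was flat across the controls and highest on CTNNB1 siRNA replicate 1. ALPP has near-identical relatives, so its probes may also read those. The genes nearest to KLF5 were FRS3, CTTNBP2NL, SLC50A1, SP110 and KDM6A, at distances of 0.046 to 0.057. Their log2 differences ran from -0.14 to -0.0073, and each was lowest on CTNNB1 siRNA replicate 1. Since both sets were picked for their likeness over these same arrays, that they repeat the patterns of KLF4 and KLF5 is a description only.

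**Figure D3:**
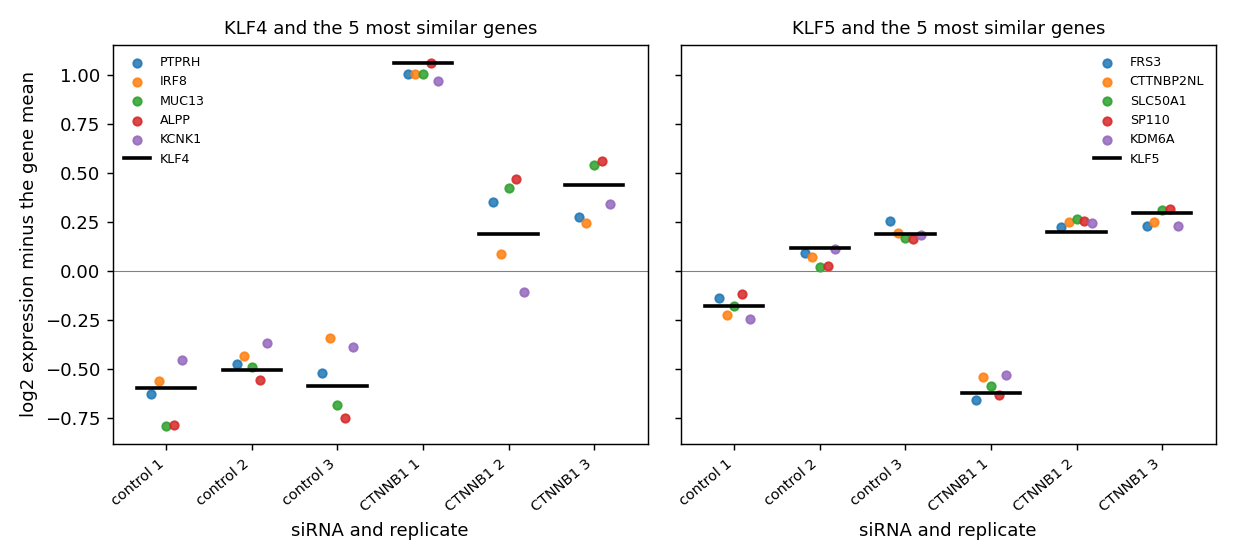
Log2 expression minus the gene's mean (vertical axis) on each array (horizontal axis; control and CTNNB1 siRNA replicates 1 to 3) for KLF4 (left) and KLF5 (right), as black bars, with the 5 most similar genes as coloured points. The KLF4 genes are below 0 on all controls and highest on CTNNB1 siRNA replicate 1, and the KLF5 genes are lowest on that array.

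Of the other KLF and SP genes, which share the zinc finger block, 15 of 16 were measured. None passed limma's adjusted test or an unadjusted p of 0.05, with 6 higher and 9 lower and a median log2 difference of -0.059. Without CTNNB1 siRNA replicate 1 the split was 10 to 5 and the median 0.056. SP5, a Wnt target, differed by -0.30 (SE 0.16), SP7 by 0.34 (SE 0.19) and SP2 by -0.36 (SE 0.21). SP2 was the 1 gene of this list whose groups did not overlap. KLF17, at 4.42 and 4.67, was dim.

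Cofactors and ubiquitin ligases of these factors were all measured (18 of 18), with 6 higher, 12 lower and a median of -0.12 (-0.063 without CTNNB1 siRNA replicate 1), and no member passed the adjusted test in limma. SET, a histone chaperone gene whose product binds KLF5, was 11.40, 11.16 and 11.01 on the controls and 10.75, 10.98 and 10.70 on the silenced arrays, a difference of -0.38 (SE 0.16; unadjusted p = 0.0440 in limma). Its groups did not overlap. The acetylase genes CREBBP, EP300 and KAT2A differed by -0.70 (SE 0.34), -0.42 (SE 0.26) and -0.29 (SE 0.17), with overlapping groups. CREBBP and EP300 were lowest on CTNNB1 siRNA replicate 1, at 7.82 and 5.92.

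Upstream regulators, 21 of 21 measured, were balanced, with 10 higher, 11 lower and a median of -0.0063, which took either sign when 1 array was left out. SMAD3, which carries TGF-beta signals, was 7.45, 7.90 and 7.87 on the controls and 8.14, 8.38 and 8.47 on the silenced arrays, higher on each of them (0.59, SE 0.17; unadjusted p = 0.00959 in limma). CDX2, an intestinal factor known to activate KLF4, was 7.94, 7.55 and 7.40 on the controls and 8.32, 7.89 and 8.09 on the silenced arrays, and the groups overlapped (0.47, SE 0.19). HES1, a Notch target, differed by 0.28 (SE 0.14) and APC, a destruction complex gene, by -0.27 (SE 0.14), with groups apart for both. No gene of the list passed over all clusters.

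Targets ascribed to KLF4 or KLF5 in epithelium were measured for 21 of 22 genes, with 13 higher, 8 lower and a median of 0.082, and none passed the adjusted test. Without CTNNB1 siRNA replicate 1 the split turned to 8 higher and 13 lower, with a median of -0.052. The list pools targets of both factors and assigns no direction to each gene, so neither tally has an expected sign. ALPI, the intestinal alkaline phosphatase gene and a known KLF4 target, was 6.23, 6.18 and 6.34 on the controls and 6.76, 6.68 and 6.89 on the silenced arrays. Its groups were apart and its difference was 0.52 (SE 0.14; unadjusted p = 0.0047 in limma). ALPI is related to ALPP, which differed by 1.39, and whether the ALPI probes also read its relatives was not tested. KRT19, a simple-epithelial keratin gene, was 10.51, 9.82 and 9.87 on the controls and 11.85, 10.59 and 10.62 on the silenced arrays, again with CTNNB1 siRNA replicate 1 the highest. CDKN1A, the cell cycle inhibitor p21, differed by 0.44 (SE 0.17) with overlapping groups, and SPRR1A, a squamous envelope gene, by 0.38 (SE 0.18). In the whole list the groups did not overlap for 4 genes, 3 higher and 1 lower. The lower gene, named after its values were seen, was CCND1 (-0.31, SE 0.16). KRT19 is also an epithelial marker, and the mean of the 5 epithelial markers was 10.39 to 10.63 on the controls and 10.75 to 11.54 on the silenced arrays. Its part in the KLF4 difference was not tested.

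Targets ascribed to KLF2, KLF6, KLF10 or KLF11 were measured for 13 of 15 genes, with 9 higher, 4 lower, a median of 0.020 (0.0038 to 0.094 with 1 array left out) and no gene past the adjusted test. CCL5, a chemokine gene, differed by 0.55 (SE 0.17) and COL1A1 by 0.36 (SE 0.16), with groups apart. KLF13, known for T cell chemokine expression, is not among the factors this list names, and which factor acts on CCL5 was not tested. SMAD2 differed by -0.22 (SE 0.17), with overlapping groups, and ENG by 0.14 (SE 0.13), with groups apart. The endothelial KLF2 targets NOS3 and THBD, named after their values were seen, were dim, in the lowest 40% of clusters, and differed by 0.074 and 0.017.

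Stimulus-response genes, which cells induce soon after a signal and often alongside KLF2, KLF4, KLF6, KLF9 or KLF10, were higher for 12 of 13 measured genes of a list of 15, with a median log2 difference of 0.37. Without control replicate 1, the split was 8 to 5 and the median 0.21. None passed over all clusters. DUSP1, a MAP kinase phosphatase gene, was 6.14, 6.79 and 6.61 on the controls and 8.33, 7.92 and 7.59 on the silenced arrays, a difference of 1.44 (SE 0.24; adjusted p = 0.477 in limma). FOS was 6.76, 7.79 and 7.76 on the controls and 9.52, 8.30 and 8.36 on the silenced arrays (1.29, SE 0.39). Both were highest on CTNNB1 siRNA replicate 1 and lowest on control replicate 1, and the groups did not overlap. ZBTB16, a glucocorticoid-induced gene, differed by 0.37 (SE 0.16) and ATF3, a stress-induced factor, by 0.56 (SE 0.27), the latter with overlapping groups. Of further glucocorticoid-responsive genes, picked with their values in view, SGK1 was lower on every silenced array (-0.29), against the direction of ZBTB16, and PER1 (0.27) and TSC22D3 (0.34) overlapped.

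**Figure D4:**
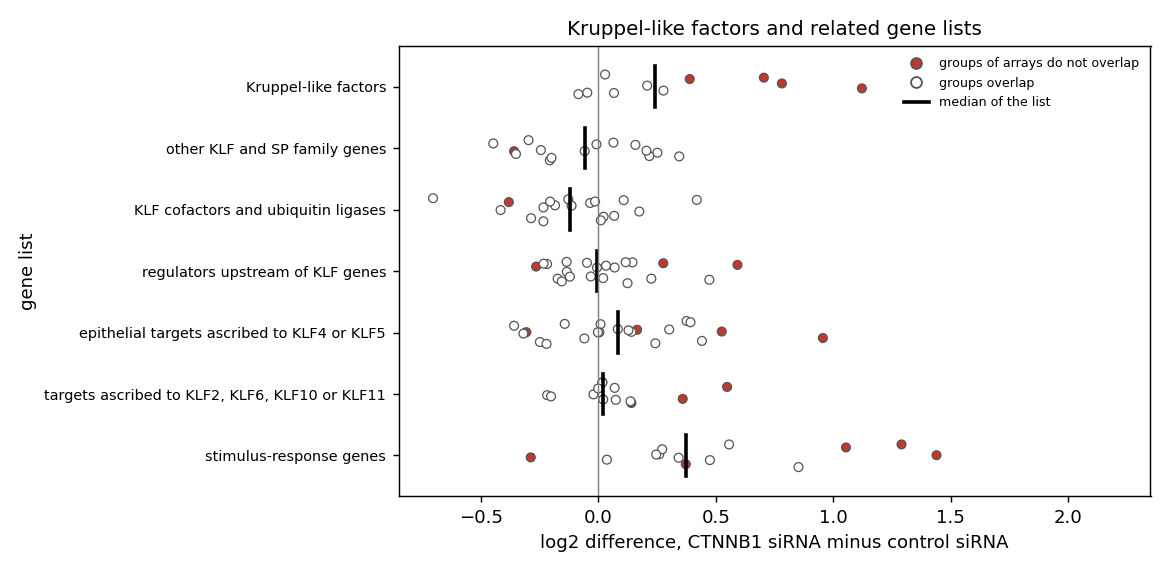
Log2 difference, CTNNB1 siRNA minus control siRNA (horizontal axis), of each measured gene in 7 lists (vertical axis), filled where the groups of arrays do not overlap; black bars mark the medians. The medians of the Kruppel-like factors (0.24) and of the stimulus-response genes (0.37) lie to the right of 0, and those of the other lists between -0.12 and 0.082; without control replicate 1 the first 2 are 0.026 and 0.21.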

How the data were processed

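The deposited table holds log2 expression values of transcript clusters on 6 arrays, 3 per siRNA (Affymetrix Human Gene 1.0 ST). Per the submitters' processing notes, the authors used RMA in Expression Console 1.1. That the scale is log2 was read from the values, and for the genome build, annotation and summary settings the entry is: not given in the sources used here. RMA forces a common intensity distribution on all arrays and compresses differences of dim clusters, and the number of arrays limits the precision. Labels give 500 ng of total RNA per sample.

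Of 33297 clusters, 19460 with exactly 1 gene symbol were tested; 1754 had several symbols and 12083 none listed. RefSeq symbols were taken by gene identifier for 19429 clusters, whether or not the symbol differed from the platform's. Groups were compared with limma 3.58.1 (lmFit, eBayes) in R 4.3.3, 2-sided, with Benjamini-Hochberg adjustment over all tested clusters at 0.05, without filter, weights or block; the code was tested on simulated data. The members and gene lists were chosen with earlier results of these data known. Named by rule were the 10 members, CTNNB1, the 5 genes most like KLF4 and KLF5, and up to 4 genes with the smallest p of each of the 6 other lists. Alternatives were a replicate block, array weights, omission of the dimmest 40%, a trended robust prior, median and quantile scaling, unmoderated tests and each array left out.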

Additional observations from a re-analysis of the deposited data

How the results depend on the processing

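No Kruppel-like factor passed under any of the 13 alternatives. KLF2, KLF4 and KLF6 had an unadjusted p under 0.05 in all 13, KLF13 in 3 and KLF7 in 1, without CTNNB1 siRNA replicate 1. Over all clusters tested, the number at that p in limma ran from 670 without the dimmest 40% to 1715 with array weights. All 13 reuse the same arrays, so they are no independent checks. The count of called clusters moved from 1 to 13 with array weights, to 0 with a replicate block, without the dimmest 40% or with unmoderated tests (limma; 1123, 670 and 1037 clusters at an unadjusted p under 0.05), and to between 0 and 10 with 1 array left out. With array weights CTNNB1 differed by -1.12 and passed (adjusted p = 0.0219), KLF4 by 0.91 (adjusted p = 0.0812), and KLF3 and KLF5 turned to 0.13 and 0.091. With 1 array left out, the difference ran from -0.33 to 0.35 for KLF3, -0.25 to 0.21 for KLF5, -0.30 to 0.68 for KLF7, -0.080 to 0.38 for KLF10 and -0.11 to 0.14 for KLF11, while KLF2 (0.53 to 0.79), KLF4 (0.87 to 1.31), KLF6 (0.58 to 0.94), KLF9 (0.096 to 0.38) and KLF13 (0.24 to 0.49) kept their direction. KLF4 minus KLF5 ran from 0.67 to 1.52. List medians with 1 array left out, an alternative chosen after seeing the data, ran from 0.026 to 0.36 for the members, 0.21 to 0.55 for stimulus-response genes, -0.16 to 0.056 for other KLF and SP genes, -0.055 to 0.041 for upstream regulators and -0.052 to 0.15 for KLF4 or KLF5 targets. The causes were not tested.

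Same-numbered arrays correlated in their deviations from the group means by 0.092, 0.12 and 0.098, and each array correlated best with its own number. Centring on the group means ties these correlations together, so the best matches are not independent of each other. The titles do not say whether same-numbered arrays were paired. The replicate block lowered the SE most for KLF3 (0.37 to 0.15) and KLF7 (0.51 to 0.25), and raised it for KLF2, KLF9 and KLF10. With the replicate block KLF4 had an adjusted p of 0.743 in limma and KLF4 minus KLF5 an exact sign-flip p of 0.25, the smallest that 3 pairs allow.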
